A study of Mus musculus with 35 samples.

Results

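The genes of heme synthesis were followed in RNA-seq counts of mouse lin- hematopoietic stem and progenitor cells (HSPCs, bone marrow cells depleted of cells with mature lineage markers). The genes were Alas1, Alas2, Alad, Uros, Urod, Cpox, Ppox, Fech and Slc25a38, that is 9 of the 49671 genes counted, chosen by symbol, and all 9 passed the filter on low counts. Cells came from male and female C57Bl/6 mice and carried a lentivirus in each of 7 groups of 5 libraries, which were Empty (the vector alone), G-NHX9, G-NHX9-8FA, G-NHX9-midi, G-NHX9-21FGAA, G-NHX9-midi-21FGAA and G-NHX9-DDNA. G-NHX9 is NUP98-HOXA9 with an mEGFP tag (named G-NHA9 in the study), a leukemia fusion that joins the phenylalanine-glycine (FG) repeats of the nucleoporin NUP98 to the DNA-binding homeodomain of HOXA9. In 8FA and 21FGAA, FG motifs of the C-terminal part of the NUP98 portion were changed to alanine, more of them in 21FGAA. In the midi form the NUP98 portion is shortened to that part, without the GLEBS domain, and midi-21FGAA carries the 21FGAA changes in it. DDNA (the study's ΔDNA) carries homeodomain changes meant to weaken DNA binding. Empty cells were sorted for mCherry and cells of the 6 constructs for both mCherry and mEGFP, so sorting differed between Empty and the constructs. Sorted cells were grown for 1 week in Methocult M3434, a methylcellulose medium with myeloid and erythroid growth factors, with 10 ng/mL GM-CSF. The labels give an age of 8 weeks for the mice except for Empty replicates 4 and 5 (9 and 10 weeks) and G-NHX9 replicate 1 (11 weeks). The methods describe transduction in triplicate, and the labels do not say which libraries came from separate animals, so p-values measure only the spread between these libraries, which may be technical.

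Heme is the iron-bearing ring of hemoglobin, cytochromes and peroxidases. Its synthesis begins in the mitochondrion, where 5-aminolevulinate synthase joins glycine and succinyl-CoA, continues in the cytosol, and ends in the mitochondrion, where ferrochelatase inserts iron. The first step has separate genes, Alas1, which is used in every tissue and is repressed by heme, and Alas2 on the X chromosome, which is used in red cell precursors and is controlled by GATA1 and by iron. Slc25a38 is the carrier that brings glycine into the mitochondrion, and Alad, Uros, Urod, Cpox, Ppox and Fech encode enzymes of the later steps. Granulocyte precursors also make much heme, for myeloperoxidase and other heme proteins.

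Total counts per library lay between 31559914 and 75810659, and 17166 genes were tested. A level is given in CPM (the count as a share of the library total, scaled by TMM), and a gene was called higher or lower where the quasi-likelihood test of edgeR gave a p under 0.05 after adjustment over all genes tested (Benjamini-Hochberg). A count of 0 allows a level of up to 3 counts, which is 0.0396 to 0.0951 CPM depending on the library and covers counting error only. The marker lists show cultures of mixed lineages at the time of harvest, since in Empty libraries the summed level was 6781 to 11142 CPM for 8 neutrophil genes, 2690.1 to 3504 CPM for 6 macrophage genes, 1109 to 3233 CPM for 7 mast cell genes, 223 to 684 CPM for 11 erythroid genes and 196 to 278 CPM for 5 stem and progenitor genes. No gene of these lists was at 0 in every library of a group. In bulk libraries such as these, fewer cells of a type and less RNA per cell cannot be told apart.

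In mm10 (GRCm38), Alas2 (ENSMUSG00000025270.13) lies on chromosome X from 150547375 to 150570638, and Alas1 (ENSMUSG00000032786.15) on chromosome 9 from 106233455 to 106248654. Slc25a38 is also on chromosome 9 (120110374 to 120124504), Alad (62509169 to 62519918) and Urod (116989965 to 116994413) are on chromosome 4, and Uros is on chromosome 7 (133686243 to 133710072). Cpox is on chromosome 16 (58670292 to 58717636) and Ppox on chromosome 1 (171275990 to 171281186). By the GENCODE M21 annotation, exons of 4 of the 9 overlap exons of a gene on the opposite strand: Alas2 and Apex2 share 311 bases, Alas1 and 4930500F10Rik 465, Cpox and Gpr15 204, and Ppox and B4galt3 791. The library kit keeps the strand, but whether the counting used it is not given in the sources used here.

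Promoters are shown for Alas2 and Cpox, the pair of genes whose levels moved most between groups, and for Alas1, the other gene of the first step. Each is the 250 bases before a start site in RefSeq (GRCm38.p6), written 5′ to 3′ on the strand of the gene. Capitals mark GATAA on either strand (TTATC where it lies on the opposite strand), the core letters of the motif that GATA factors bind.
Alas2 promoter, chrX:150547167-150547416, plus strand: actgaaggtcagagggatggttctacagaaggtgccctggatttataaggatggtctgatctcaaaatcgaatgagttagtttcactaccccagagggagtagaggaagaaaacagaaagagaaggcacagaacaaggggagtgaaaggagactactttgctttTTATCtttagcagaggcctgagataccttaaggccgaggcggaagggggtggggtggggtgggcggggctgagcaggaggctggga
Cpox promoter, chr16:58669958-58670207, plus strand: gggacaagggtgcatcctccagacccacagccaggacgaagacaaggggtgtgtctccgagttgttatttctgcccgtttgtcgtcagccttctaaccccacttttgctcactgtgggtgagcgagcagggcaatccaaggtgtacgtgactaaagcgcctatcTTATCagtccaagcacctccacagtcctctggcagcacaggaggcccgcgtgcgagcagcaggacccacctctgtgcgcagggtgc
Alas1 promoter at the second of its starts, chr9:106247731-106247980, minus strand: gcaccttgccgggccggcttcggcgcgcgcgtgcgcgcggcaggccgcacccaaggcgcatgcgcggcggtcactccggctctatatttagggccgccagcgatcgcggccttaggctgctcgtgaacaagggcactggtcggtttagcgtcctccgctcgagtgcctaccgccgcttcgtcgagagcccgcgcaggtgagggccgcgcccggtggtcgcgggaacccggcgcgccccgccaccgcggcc
GATAA lay 86 to 82 bases before the RefSeq start in both Alas2 and Cpox, on the opposite strand each time, and in no window of Alas1. Of the 11 promoters that RefSeq gives for 8 of the genes, 3 held it, the other being the second promoter of Uros (68 to 64 bases before the start). It is found in 22.6% of the 32851 promoters of this length. CACCC, read by KLF1 and other factors of that family, occurred 3 times in the Alas2 window, within the last 40 bases before the RefSeq start, and 4 times in that of Cpox. It was also in the printed Alas1 window, 203 to 199 bases before the start, and in that of the other Alas1 start. Of the 11 promoters 6 held CACCC, and 52.0% of all promoters hold it. CCAAT, found in 33.8% of all promoters, was in none of the 3 windows printed. All distances are from RefSeq starts, which differ from the GENCODE gene starts given above. The Alas2 window ends at 150547416, past the GENCODE start at 150547375, so its CACCC matches lie inside the GENCODE gene. The Cpox window ends at 58670207, short of the GENCODE start at 58670292. The equal distance of GATAA in Alas2 and Cpox therefore depends on the starts used. A match to these letters is a description of the sequence and not a binding site.

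Between groups, the 9 genes differed widely in how far they moved. The mean level of Alas2 was 102-fold higher in the highest group than in the lowest, against 3.50-fold for Cpox, 2.64-fold for Alad, 2.06-fold for Fech and 1.62-fold for Alas1. The other 4 stayed within a narrow range, with 1.49-fold for Uros, 1.26-fold for Slc25a38, 1.19-fold for Urod and 1.11-fold for Ppox. The lowest group was G-NHX9-midi or G-NHX9-8FA for 6 of the 9 genes (Alas2, Alad, Urod, Cpox, Fech and Slc25a38), and the highest was G-NHX9-midi-21FGAA for 6 of them (Alas2, Alad, Uros, Urod, Fech and Slc25a38). For Alas1, in contrast, the highest mean was in G-NHX9-8FA and the lowest in G-NHX9-21FGAA. The order was not a plain reversal, since G-NHX9-DDNA had a mean above Empty for both Alas1 (432 against 362 CPM) and Alas2 (31.9 against 12.2 CPM).

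**Figure D1:**
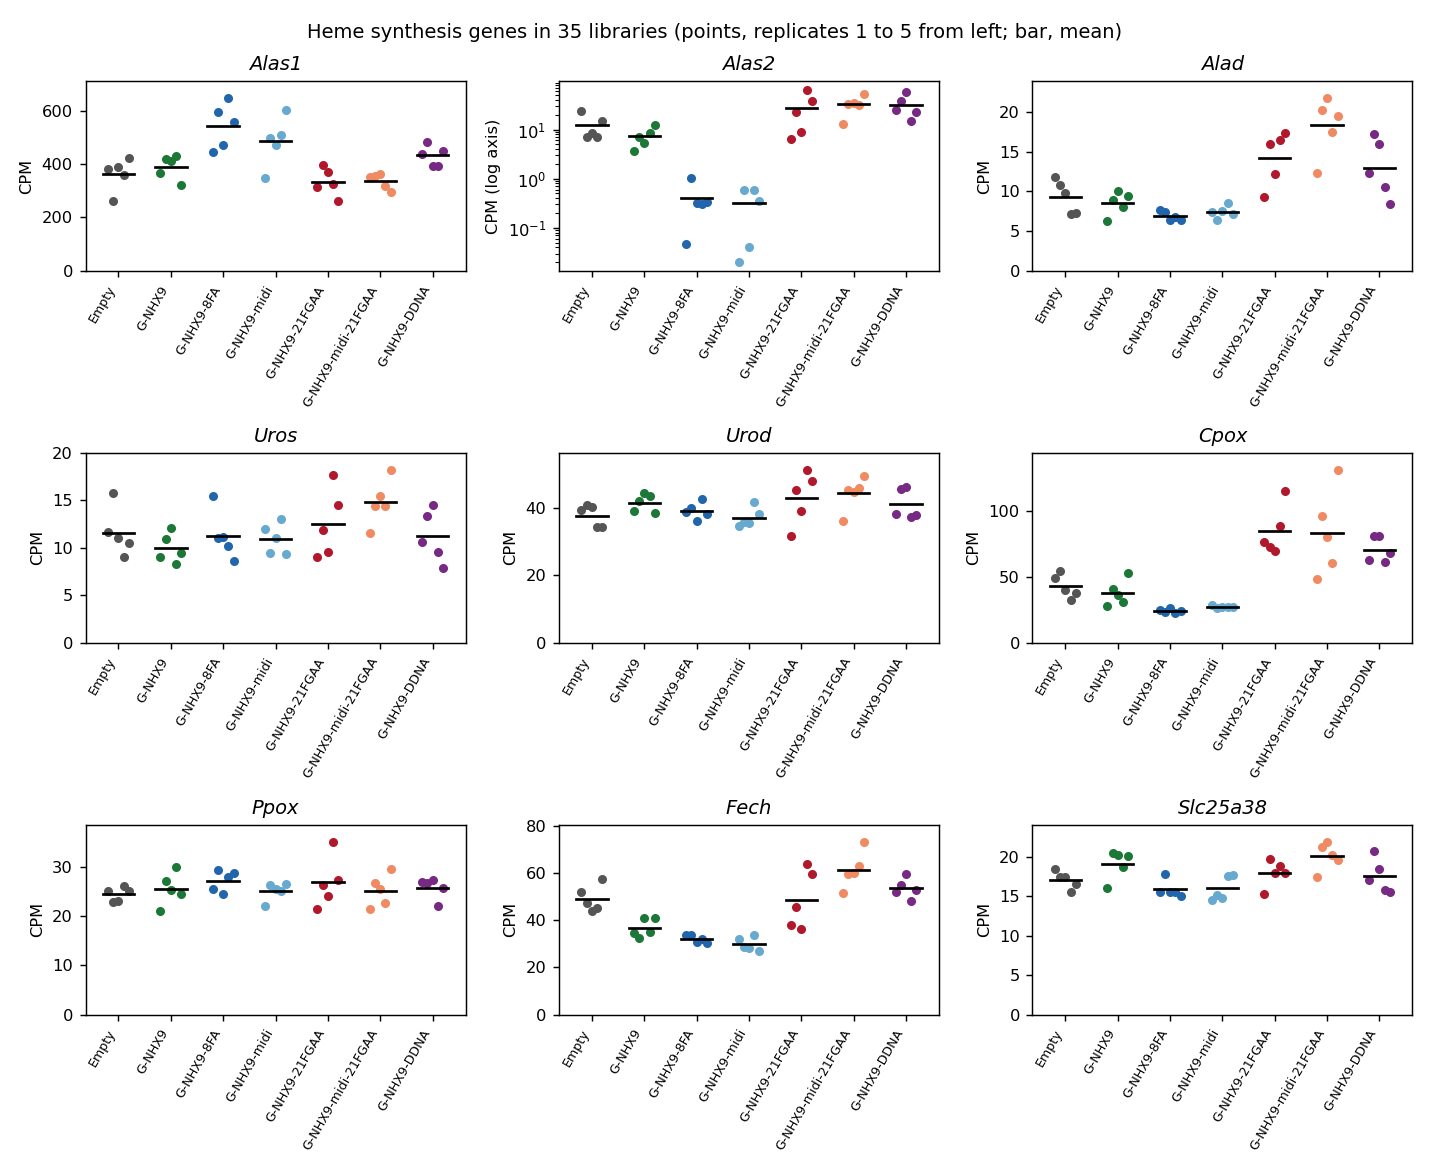
Level of each of the 9 genes in the 35 libraries. Each panel is a gene, the vertical axis is its level in TMM-scaled CPM (a log axis for Alas2 and a linear axis from 0 for the others), points are the 5 libraries of a group with replicates 1 to 5 from left to right, and black bars are means. Alas2 fell to means of 0.404 and 0.320 CPM in G-NHX9-8FA and G-NHX9-midi, whereas Urod, Ppox and Slc25a38 held similar means in all groups.

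Against Empty, G-NHX9-8FA and G-NHX9-midi each had 1 of the 9 genes higher (Alas1) and 3 lower (Alas2, Cpox and Fech). Of all genes tested, 13.4% were higher and 13.2% lower in G-NHX9-8FA, and 20.5% and 20.0% in G-NHX9-midi. G-NHX9 had 0 higher and 1 lower (Fech), where 16.9% and 15.2% of all genes were called. G-NHX9-21FGAA and G-NHX9-midi-21FGAA each had Alad and Cpox higher and none of the 9 lower, against backgrounds of 14.7% higher and 12.5% lower in the first and 9.59% and 7.32% in the second. With a block for the replicate number, the members called in G-NHX9-midi-21FGAA were 4 rather than 2, with Fech (adjusted p = 0.041) and Slc25a38 (adjusted p = 0.038) added. With that block 13.2% of all genes were higher and 12.1% lower in this group. G-NHX9-DDNA had only Cpox higher, with 9.85% of all genes higher and 7.35% lower. The median log2 fold change over the 9 genes was -0.13, -0.10, -0.10, 0.14, 0.32 and 0.12 in G-NHX9, G-NHX9-8FA, G-NHX9-midi, G-NHX9-21FGAA, G-NHX9-midi-21FGAA and G-NHX9-DDNA, and that over all genes tested lay between -0.02 and 0.03. Library sizes without TMM moved the latter to between 0.08 and 0.19 and changed the count of members called to 2 higher and 0 lower in G-NHX9, 6 higher in G-NHX9-21FGAA, 7 higher in G-NHX9-midi-21FGAA and 4 higher in G-NHX9-DDNA. In that fit 29.2%, 26.5%, 19.1% and 17.0% of all genes were higher in these groups, and 9.53%, 5.77%, 3.89% and 3.61% lower. The members it added were Urod and Slc25a38 in G-NHX9, Alas2, Urod, Ppox and Slc25a38 in G-NHX9-21FGAA, Alas2, Uros, Urod, Fech and Slc25a38 in G-NHX9-midi-21FGAA, and Alas1, Alas2 and Alad in G-NHX9-DDNA, while Fech in G-NHX9 was lost.

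Against G-NHX9, the unmutated fusion, G-NHX9-8FA had Alas1 higher and Alas2, Cpox and Slc25a38 lower, where 6.43% of all genes were higher and 8.04% lower. G-NHX9-midi had Alas2 and Slc25a38 lower (8.50% of all genes higher, 11.2% lower). In both G-NHX9-21FGAA (8.91% of all genes higher, 8.34% lower) and G-NHX9-DDNA (10.7% higher, 11.4% lower), the same 4 genes were higher, namely Alas2, Alad, Cpox and Fech, and none of the 9 was lower. These comparisons share the G-NHX9 libraries. G-NHX9-midi-21FGAA against G-NHX9-midi gave the most calls, with 6 higher (Alas2, Alad, Urod, Cpox, Fech and Slc25a38) and Alas1 lower, where 21.0% of all genes were higher and 22.2% lower.

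**Figure D2:**
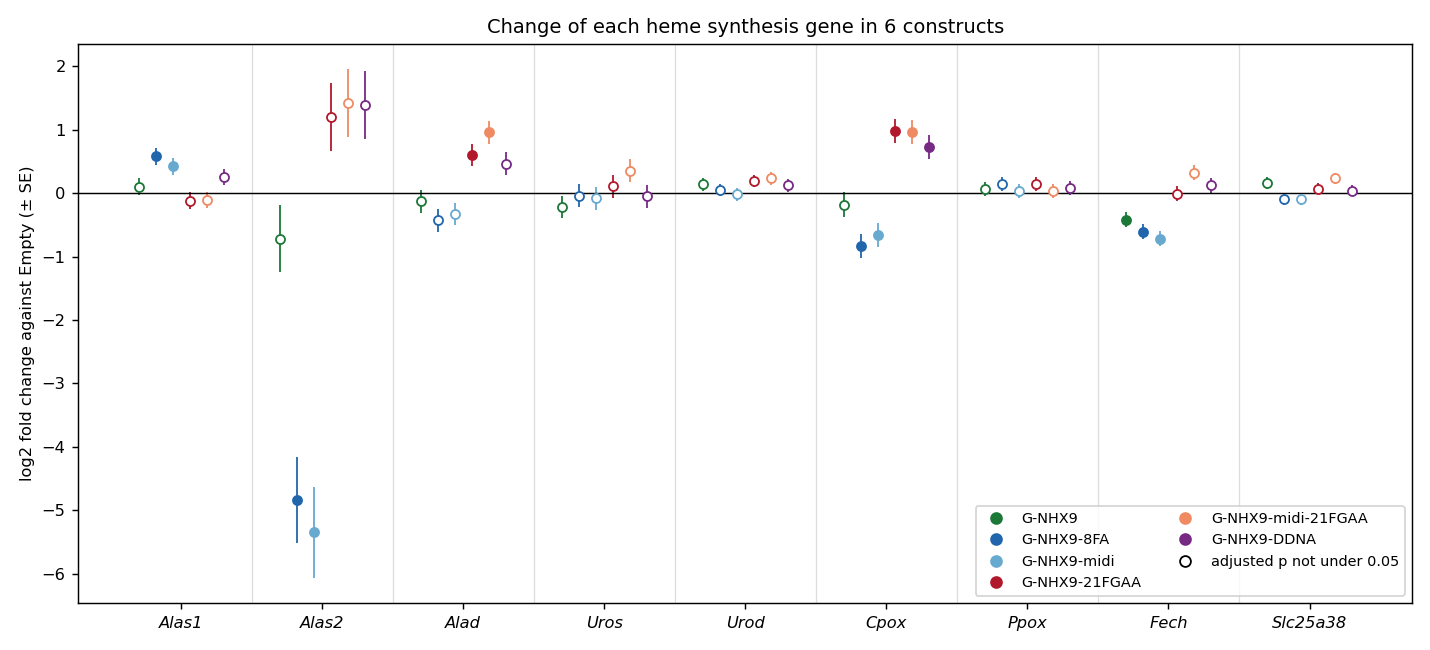
Log2 fold change of each of the 9 genes against Empty in the 6 constructs. The vertical axis is the fitted log2 fold change, bars are its SE, colours are constructs, and open circles mark values with an adjusted p that is not under 0.05. Alas2 stands apart with -4.84 in G-NHX9-8FA and -5.35 in G-NHX9-midi, and Alas1 is the only one of the 9 with filled points above 0 in these constructs.

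Alas2 encodes the erythroid form of 5-aminolevulinate synthase, which commits red cell precursors to making heme. In Empty its level was 23.7, 6.93, 8.48, 6.94 and 14.9 CPM in replicates 1 to 5. In G-NHX9 it was 3.70, 6.90, 5.36, 8.48 and 12.4 CPM. These groups overlapped, with 3 of the 5 G-NHX9 libraries under every Empty library. In G-NHX9-8FA it was 0.0466, 1.01, 0.324, 0.308 and 0.336 CPM, and in G-NHX9-midi 0.0199, 0.600, 0.0409, 0.588 and 0.350 CPM. Every one of these 10 libraries lay below every library of the other groups. The lowest of them, G-NHX9-8FA replicate 1 with 2 counts and G-NHX9-midi replicates 1 and 3 with 1 and 2 counts, were within what a count of 0 allows. In G-NHX9-21FGAA the level was 6.44, 22.5, 8.79, 64.7 and 37.6 CPM, in G-NHX9-midi-21FGAA 12.9, 32.3, 34.0, 31.8 and 52.5 CPM, and in G-NHX9-DDNA 25.5, 38.6, 57.6, 14.6 and 23.1 CPM. The G-NHX9-21FGAA libraries were the most uneven, with replicate 1 just below the Empty range, replicates 2 and 3 inside it and replicates 4 and 5 above it. In the order of means (32.7 CPM in G-NHX9-midi-21FGAA, 31.9 in G-NHX9-DDNA, 28.0 in G-NHX9-21FGAA, 12.2 in Empty, 7.37 in G-NHX9, 0.404 in G-NHX9-8FA and 0.320 in G-NHX9-midi), the step from G-NHX9 to G-NHX9-8FA was the only one between neighbours whose ranges did not overlap.

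Alas2 was lower than in Empty in the groups with the lowest levels, with fitted log2 fold changes of -4.84 ± 0.68 (SE) in G-NHX9-8FA (adjusted p = 1.7e-06) and -5.35 ± 0.71 in G-NHX9-midi (adjusted p = 2.7e-07). The fall was of like size against G-NHX9, at -4.11 ± 0.67 (adjusted p = 5.1e-05) and -4.63 ± 0.71 (adjusted p = 9.5e-06). These 4 calls held without any 1 library, in which the highest adjusted p was 3.3e-04. Alas2 in G-NHX9 itself was not called against Empty (log2 fold change -0.72, 95% interval -1.76 to 0.32, adjusted p = 0.32). The 3 constructs with higher means were not called against Empty either, with 1.20 ± 0.53 in G-NHX9-21FGAA (adjusted p = 0.09), 1.42 ± 0.53 in G-NHX9-midi-21FGAA (adjusted p = 0.059) and 1.39 ± 0.53 in G-NHX9-DDNA (adjusted p = 0.066). Each was called once Empty replicate 1, the highest Alas2 library of that group, was left out (adjusted p = 0.031, 0.022 and 0.025). Calls also came without G-NHX9-21FGAA replicate 1 (0.034) or 3 (0.044), without G-NHX9-midi-21FGAA replicate 1 (0.035), and without G-NHX9-DDNA replicate 4 (0.048). Without TMM all 3 passed (0.046, 0.035 and 0.044), and in a fit to both groups alone the latter 2 did (0.033 and 0.038).

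Against G-NHX9, Alas2 was higher by 2.11 ± 0.54 on the log2 scale in G-NHX9-DDNA (adjusted p = 0.0043), with every G-NHX9-DDNA library above every G-NHX9 library. It was higher by 1.93 ± 0.54 in G-NHX9-21FGAA (adjusted p = 0.01). That call was lost without G-NHX9-21FGAA replicate 4 (1.35, adjusted p = 0.084). With replicates 1 to 3 only, an alternative chosen after the data were seen, Alas2 in G-NHX9-21FGAA was 1.25 against G-NHX9 (adjusted p = 0.2) and -0.03 against Empty (adjusted p = 0.98). The largest difference of Alas2 was between G-NHX9-midi-21FGAA and G-NHX9-midi, which differ in the FG motifs, at 6.78 ± 0.73 (adjusted p = 3.8e-09).

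Erythroid markers moved with Alas2. All 11 that were found of 12 listed were lower in G-NHX9-8FA than in Empty, and 10 of the 11 in G-NHX9-midi, with a median log2 fold change of -4.84 and -4.73. Slc4a1, the anion exchanger of the red cell membrane, fell by 5.60 on the log2 scale in G-NHX9-midi (adjusted p = 1.5e-07), and Hba-a1, an alpha globin gene, fell by 4.73 (adjusted p = 2.1e-08). In G-NHX9-21FGAA 7, in G-NHX9-midi-21FGAA 10 and in G-NHX9-DDNA 3 of the 11 were higher than in Empty, and in G-NHX9 0. Among all genes tested, 14.7%, 9.59%, 9.85% and 16.9% were higher in these groups. In G-NHX9-8FA and G-NHX9-midi 13.2% and 20.0% of all genes were lower. In G-NHX9-midi-21FGAA the ranges of all 11 markers overlapped those of Empty, as did all but 1 in each of G-NHX9-21FGAA and G-NHX9-DDNA. The marker not called in G-NHX9-midi, Hbb-bt, was noticed after its values were seen. This beta globin gene kept a mean of 45.5 ± 8.63 CPM (SD, n = 5) in G-NHX9-midi against 69.3 ± 28.1 CPM (SD, n = 5) in Empty, whereas Hbb-bs, its neighbour in the cluster, had means of 7.41 and 181 CPM. Hbb-bt and Hbb-bs, like Hba-a1 and Hba-a2, are near-identical copies. Reads that match both copies could be split between them or left out by the counting.

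Set against the summed level of the 10 other erythroid markers, Alas2 changed far less than its own level did. It was 3.77 ± 0.738% of that sum (SD, n = 5) in Empty, 2.88 ± 0.257% in G-NHX9, 3.32 ± 0.908% in G-NHX9-21FGAA, 3.67 ± 0.386% in G-NHX9-midi-21FGAA and 4.39 ± 0.230% in G-NHX9-DDNA. In G-NHX9-8FA it was 1.76 ± 0.648% and in G-NHX9-midi 1.94 ± 1.19%, where the sum itself had fallen from 181 to 569 CPM in Empty to between 4.24 and 35.4 CPM and between 3.81 and 25.7 CPM. Over all 11 markers with Hbb-bt, the share was 3.09% in Empty, 0.687% in G-NHX9-8FA and 0.485% in G-NHX9-midi. These shares were not tested.

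**Figure D3:**
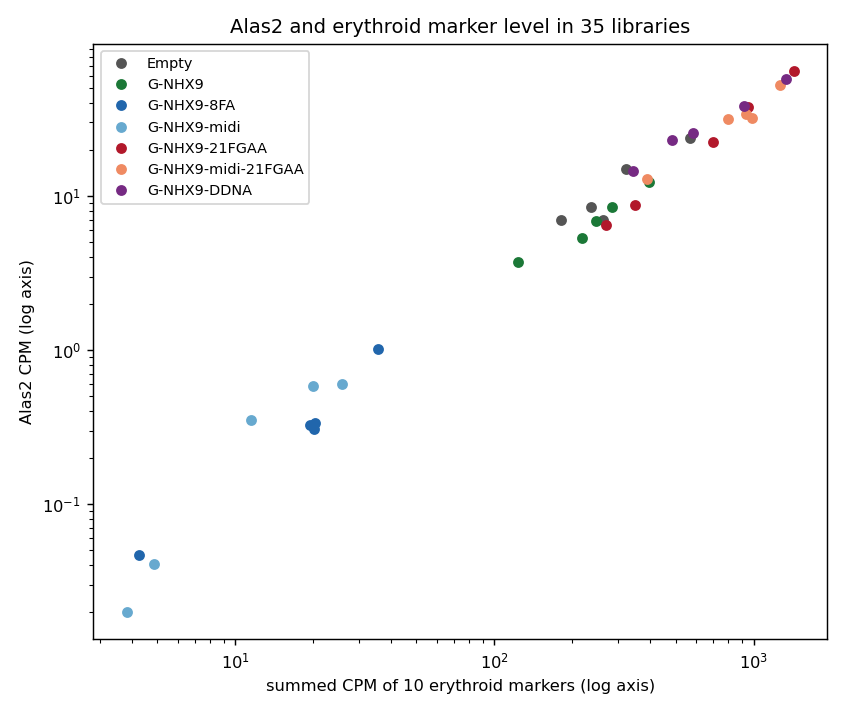
Alas2 and the erythroid markers in the same libraries. The horizontal axis is the summed CPM of 10 erythroid markers (all found but Hbb-bt) and the vertical axis the CPM of Alas2, both log axes, and each point is 1 of the 35 libraries coloured by group. The 10 libraries of G-NHX9-8FA and G-NHX9-midi lie at the lower left, with at most 35.4 CPM of markers and at most 1.01 CPM of Alas2.

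Over the 35 libraries, the tested genes whose log2 CPM was most like that of Alas2 were Slc4a1 (Pearson r = 0.994), Hba-a1 (0.993), Hba-a2 (0.992), Hbb-bs (0.991) and Tmcc2 (0.966), among the 10308 genes whose mean reached 5 CPM. Of these, 4 are in the erythroid list. The libraries share groups and scaling, so these r describe the likeness of the patterns and carry no p. Mean levels of Slc4a1 ran from 0.534 CPM in G-NHX9-midi to 75.2 CPM in G-NHX9-midi-21FGAA, with 24.3 CPM in Empty. For Alas1 the most alike were Ppm1m (r = 0.905), S100a9 (0.888), S100a8 (0.887), Rnd1 (0.883) and Rab24 (0.873). S100a8 and S100a9 encode the subunits of calprotectin, an abundant neutrophil protein, and both are in the neutrophil list. S100a8 had a mean of 8415 CPM in G-NHX9-8FA, 5742 CPM in G-NHX9-midi and 3090.1 CPM in Empty.

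Alas1, the form of the first enzyme found in all tissues, moved the other way in G-NHX9-8FA and G-NHX9-midi, and much less. It stood at 381, 261, 389, 359.8 and 421 CPM in Empty and at 365, 418, 411, 430.3 and 323 CPM in G-NHX9. In G-NHX9-8FA it was 445, 594, 469.8, 646 and 556 CPM, and in G-NHX9-midi 348, 497, 473, 509 and 601 CPM. All 5 G-NHX9-8FA libraries were above every Empty and every G-NHX9 library, and 4 of the 5 G-NHX9-midi libraries were above every Empty library. It was 315, 396, 372, 325 and 263 CPM in G-NHX9-21FGAA, 353, 356, 363, 316 and 297 CPM in G-NHX9-midi-21FGAA, and 439, 484, 394, 394 and 449.9 CPM in G-NHX9-DDNA. Neighbours in the order of means overlapped at every step. Alas1 was higher than in Empty by 0.58 ± 0.13 on the log2 scale in G-NHX9-8FA (adjusted p = 0.0011) and by 0.42 ± 0.13 in G-NHX9-midi (adjusted p = 0.01). The second of these was lost without Empty replicate 2, its lowest library (adjusted p = 0.054), in a fit to both groups alone (0.063) and with replicates 1 to 3 only (0.065).

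Alas1 was not called against Empty in G-NHX9 (log2 fold change 0.10, adjusted p = 0.59), G-NHX9-21FGAA (-0.12, adjusted p = 0.55), G-NHX9-midi-21FGAA (-0.11, adjusted p = 0.64) or G-NHX9-DDNA (0.25, adjusted p = 0.19). Against G-NHX9 it was higher by 0.48 ± 0.13 in G-NHX9-8FA (adjusted p = 0.013), a call lost without G-NHX9 replicate 5 (adjusted p = 0.058) or G-NHX9-8FA replicate 4 (adjusted p = 0.055) and without TMM (adjusted p = 0.057), and at 0.33 with replicates 1 to 3 only (adjusted p = 0.2). In G-NHX9-midi it stood 0.32 above G-NHX9 (adjusted p = 0.086) and was called without G-NHX9-midi replicate 1 (adjusted p = 0.022). G-NHX9-midi-21FGAA was below G-NHX9-midi by 0.53 ± 0.13 on the log2 scale (log2 fold change -0.53, adjusted p = 0.0015), which became -0.30 with replicates 1 to 3 only (adjusted p = 0.14). Beside these values, 5 of the 8 neutrophil genes were higher in G-NHX9-8FA than in Empty and 3 higher and 2 lower in G-NHX9-midi, and their summed level was 13577 to 32882 CPM and 9091 to 21073 CPM in the libraries of these groups. Of the groups where Alas1 was not called, G-NHX9-DDNA also had 5 of the 8 higher, with a summed level of 10738 to 19868 CPM, G-NHX9-21FGAA had 3 higher (7126 to 12625 CPM), G-NHX9 had 2 higher (8294 to 13672 CPM) and G-NHX9-midi-21FGAA had 0 higher (4812 to 11556 CPM). Higher shares of all genes were 13.4% in G-NHX9-8FA, 20.5% in G-NHX9-midi (20.0% lower) and 9.85% in G-NHX9-DDNA. They were 14.7% in G-NHX9-21FGAA, 16.9% in G-NHX9 and 9.59% in G-NHX9-midi-21FGAA. The part of the neutrophil markers in the levels of Alas1 was not tested.

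The balance of the synthase genes was taken within each library as log2 of the Alas2 count over the Alas1 count, which does not depend on the scaling of libraries. In Empty it was -4.01, -5.23, -5.52, -5.69 and -4.82, and in G-NHX9 -6.62, -5.92, -6.26, -5.66 and -4.70. In G-NHX9-8FA it was -12.90, -9.19, -10.46, -10.97 and -10.63, and in G-NHX9-midi -13.51, -9.66, -13.17, -9.72 and -10.70. All 10 of these values lay below every value of the other 5 groups. It was -5.61, -4.13, -5.40, -2.33 and -2.81 in G-NHX9-21FGAA, -4.77, -3.46, -3.41, -3.32 and -2.50 in G-NHX9-midi-21FGAA, and -4.11, -3.65, -2.77, -4.75 and -4.28 in G-NHX9-DDNA. Alas1 was the more abundant transcript in every library. Per kb of exon, the geometric mean excess of Alas1 over Alas2 was 12.9-fold in Empty, 22.2-fold in G-NHX9, 708-fold in G-NHX9-8FA, 1018-fold in G-NHX9-midi, 6.47-fold in G-NHX9-21FGAA, 4.38-fold in G-NHX9-midi-21FGAA and 5.85-fold in G-NHX9-DDNA. The smallest excess in a single library was 1.95-fold, in G-NHX9-21FGAA.

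**Figure D4:**
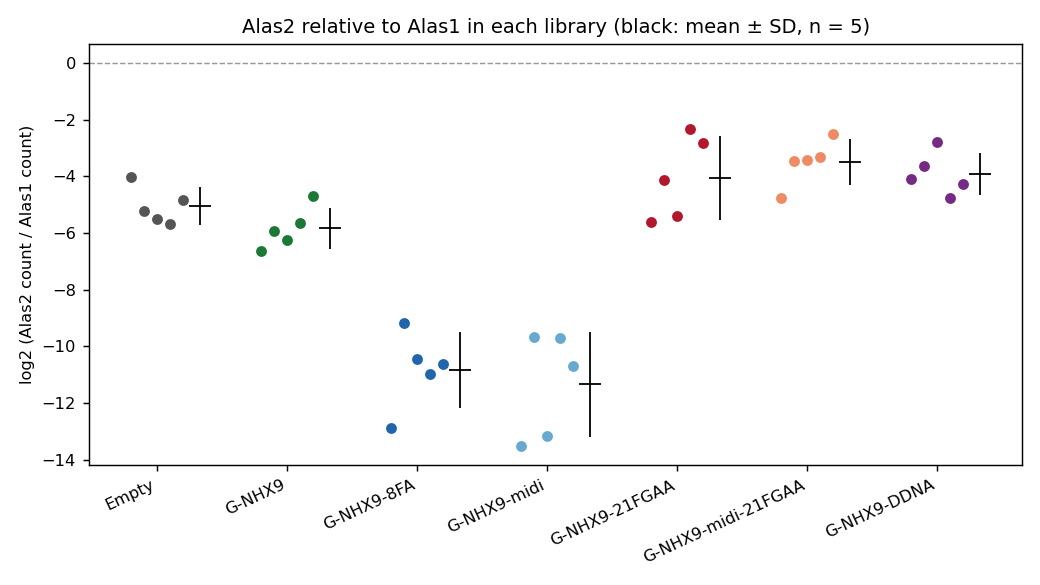
Balance of the synthase genes by library. The vertical axis is log2 of the Alas2 count over the Alas1 count, coloured points are the 5 libraries of a group with replicates 1 to 5 from left to right, black marks are the mean and SD, and the dashed line at 0 marks equal counts. Means are -5.05 in Empty, -10.83 in G-NHX9-8FA and -11.35 in G-NHX9-midi, and between -4.06 and -3.49 in the 3 groups at the right.

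The balance was compared by two-sided exact permutation tests of 5 libraries against 5, whose smallest p is 0.0079, adjusted over the 11 comparisons. Against Empty, the log2 balance differed by -5.78 ± 0.67 (SE) in G-NHX9-8FA and by -6.30 ± 0.89 in G-NHX9-midi (exact p = 0.0079 and adjusted p = 0.017 for each). G-NHX9-midi-21FGAA was above Empty by 1.56 ± 0.47 (adjusted p = 0.025 from the exact permutation test), a call lost without Empty replicate 2, 3 or 4 (adjusted p = 0.062 each). G-NHX9-DDNA was above Empty by 1.14 ± 0.45 (exact p = 0.048, adjusted p = 0.058), and this difference passed without Empty replicate 1 (adjusted p = 0.022, permutation) or G-NHX9-DDNA replicate 4 (adjusted p = 0.044, permutation). The difference in G-NHX9-21FGAA was 1.00 ± 0.73 (exact p = 0.24, adjusted p = 0.24). That in G-NHX9 was -0.78 ± 0.44 (exact p = 0.12, adjusted p = 0.13) and reached an adjusted permutation p of 0.044 without G-NHX9 replicate 5. Against G-NHX9, the differences were -5.00 in G-NHX9-8FA and -5.52 in G-NHX9-midi (adjusted p = 0.017 for each, exact), 1.92 in G-NHX9-DDNA (adjusted p = 0.025, exact) and 1.78 in G-NHX9-21FGAA (exact p = 0.048, adjusted p = 0.058). The last passed without G-NHX9 replicate 5 (adjusted permutation p = 0.049) or G-NHX9-21FGAA replicate 1 (0.033) or 3 (0.044). G-NHX9-midi-21FGAA was above G-NHX9-midi by 7.86 ± 0.91 (adjusted p = 0.017, exact). With libraries paired by replicate number, an exact sign-flip permutation test of 5 pairs cannot go below 0.062, and the adjusted p was 0.15 for G-NHX9-midi-21FGAA against Empty and 0.098 for G-NHX9-DDNA against G-NHX9.

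Alad, Uros and Urod act in the cytosol, between the first step and the return of the pathway to the mitochondrion. Alad, which joins pairs of aminolevulinate into porphobilinogen, was at 11.8, 10.8, 9.75, 7.10 and 7.28 CPM in Empty. It was at 12.3, 20.2, 21.7, 17.5 and 19.5 CPM in G-NHX9-midi-21FGAA, above every Empty library, and at 9.31, 15.9, 12.2, 16.4 and 17.3 CPM in G-NHX9-21FGAA, where replicate 1 lay inside the Empty range. The fitted log2 fold changes of Alad against Empty were 0.96 ± 0.18 (adjusted p = 8.6e-04) and 0.60 ± 0.18 (adjusted p = 0.013). With replicates 1 to 3 only, that in G-NHX9-21FGAA was 0.23 (adjusted p = 0.53). Alad in G-NHX9-DDNA stood 0.46 above Empty (adjusted p = 0.076), with a call without Empty replicate 1 (0.039) or G-NHX9-DDNA replicate 5 (0.022). In G-NHX9-8FA, where it ranged from 6.36 to 7.60 CPM, the value was -0.43 (adjusted p = 0.079), with a call without Empty replicate 4 (0.038) or 5 (0.046). It was -0.33 (adjusted p = 0.15) in G-NHX9-midi, and -0.57 with replicates 1 to 3 only (adjusted p = 0.044). Against G-NHX9, Alad was higher in G-NHX9-21FGAA (0.73, adjusted p = 0.0039) and in G-NHX9-DDNA (0.59, adjusted p = 0.017), the latter not in a fit to both groups alone (adjusted p = 0.057) or without G-NHX9 replicate 1 (0.057) or G-NHX9-DDNA replicate 2 (0.071) or 3 (0.06). The call of Alad in G-NHX9-21FGAA was lost with replicates 1 to 3 only (0.58, adjusted p = 0.076). Between G-NHX9-midi-21FGAA and G-NHX9-midi the difference was 1.29 ± 0.18 (adjusted p = 6.8e-07).

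Uros, which closes the linear tetrapyrrole into a ring, had means from 9.97 CPM in G-NHX9 to 14.8 CPM in G-NHX9-midi-21FGAA and was called in none of the 11 comparisons. The nearest was G-NHX9-midi-21FGAA against G-NHX9-midi, at 0.44 ± 0.18 (adjusted p = 0.052), which passed without G-NHX9-midi replicate 4 (adjusted p = 0.033) or G-NHX9-midi-21FGAA replicate 1 (adjusted p = 0.031) as well as with DESeq2 (adjusted p = 0.042) and in a fit to both groups alone (0.015). Urod, the decarboxylase that follows, lay between 31.6 CPM, in replicate 1 of G-NHX9-21FGAA, and 51.3 CPM, in replicate 4 of the same group. It was not called in any construct against Empty (log2 fold changes from -0.02 to 0.23). Urod was called without replicate 1 of G-NHX9-21FGAA (0.29, adjusted p = 0.021) and without replicate 1 of G-NHX9-midi-21FGAA (0.31, adjusted p = 0.033) in these groups, and without TMM in G-NHX9, G-NHX9-21FGAA and G-NHX9-midi-21FGAA (0.31, 0.38 and 0.37, adjusted p = 0.017, 0.0056 and 0.0099). Urod was called higher in G-NHX9-midi-21FGAA than in G-NHX9-midi (0.25 ± 0.10, adjusted p = 0.04). That call was lost without any 1 of G-NHX9-midi replicates 1, 2 and 3 and G-NHX9-midi-21FGAA replicates 2, 3, 4 and 5 (adjusted p from 0.063 to 0.085) and with replicates 1 to 3 only (adjusted p = 0.08).

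Cpox, Ppox and Fech finish the pathway at the mitochondrion. Cpox, coproporphyrinogen oxidase, had calls in both directions against Empty. It was at 49.4, 54.6, 40.2, 32.6 and 37.8 CPM in Empty and at 28.0, 40.6, 36.5, 31.0 and 52.9 CPM in G-NHX9, which overlapped. It fell to 24.7, 23.1, 26.2, 22.6 and 24.4 CPM in G-NHX9-8FA and to 28.7, 26.6, 27.3, 26.8 and 26.8 CPM in G-NHX9-midi. Both groups lay below every Empty library and were tight, with SDs of 1.42 and 0.859 CPM. It rose to 76.7, 72.9, 69.4, 88.6 and 115 CPM in G-NHX9-21FGAA, to 48.2, 95.8, 80.5, 60.7 and 131 CPM in G-NHX9-midi-21FGAA and to 62.6, 81.3, 80.9, 61.1 and 67.9 CPM in G-NHX9-DDNA. Only replicate 1 of G-NHX9-midi-21FGAA came within the Empty range.

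The log2 fold changes of Cpox against Empty were -0.83 ± 0.19 in G-NHX9-8FA (adjusted p = 0.0012), -0.66 ± 0.19 in G-NHX9-midi (adjusted p = 0.0055), 0.98 ± 0.19 in G-NHX9-21FGAA (adjusted p = 2.8e-04), 0.96 ± 0.19 in G-NHX9-midi-21FGAA (adjusted p = 0.0012) and 0.72 ± 0.19 in G-NHX9-DDNA (adjusted p = 0.0082). These 5 calls of Cpox held without any 1 library and under each alternative, with a highest adjusted p of 0.037. In G-NHX9 the value was -0.18 (adjusted p = 0.5). Against G-NHX9, Cpox was higher in G-NHX9-21FGAA (1.16, adjusted p = 2.4e-05) and G-NHX9-DDNA (0.90, adjusted p = 5.4e-04). It was lower in G-NHX9-8FA (-0.64, adjusted p = 0.019), a call lost without G-NHX9 replicate 5 (adjusted p = 0.099) and with replicates 1 to 3 only (adjusted p = 0.088). In G-NHX9-midi it stood at -0.47 (adjusted p = 0.075) and was called without G-NHX9 replicate 1 (adjusted p = 0.047). G-NHX9-midi-21FGAA was above G-NHX9-midi by 1.61 ± 0.19 (adjusted p = 2.7e-08).

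Ppox, which oxidises protoporphyrinogen, was called in none of the 11 comparisons, and its log2 fold changes against Empty lay between 0.04 and 0.15. The 95% interval of the largest, in G-NHX9-8FA, was -0.05 to 0.36. Fech, ferrochelatase, was at 51.9, 47.2, 43.7, 45.3 and 57.4 CPM in Empty and between 32.2 and 40.9 CPM in G-NHX9, without overlap. It was at 33.5, 33.6, 30.7, 32.1 and 30.5 CPM in G-NHX9-8FA and at 32.0, 28.5, 28.0, 33.8 and 26.7 CPM in G-NHX9-midi, again below every Empty library. Fech fell by 0.42 ± 0.12 on the log2 scale in G-NHX9 (log2 fold change -0.42, adjusted p = 0.0067), by 0.61 ± 0.12 in G-NHX9-8FA (-0.61, adjusted p = 2.2e-04) and by 0.72 ± 0.12 in G-NHX9-midi (-0.72, adjusted p = 1.2e-05). The first of these was -0.24 without TMM (adjusted p = 0.14). Fech was the only one of the 9 that was lower in G-NHX9 than in Empty.

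Fech was at 37.8, 45.4, 36.4, 63.8 and 59.7 CPM in G-NHX9-21FGAA, with 2 libraries above and 2 below all of Empty. In G-NHX9-midi-21FGAA it ranged from 51.3 to 73.1 CPM and in G-NHX9-DDNA from 48.2 to 59.3 CPM. Against Empty the log2 fold changes were -0.01 (adjusted p = 0.95), 0.32 (adjusted p = 0.06) and 0.12 (adjusted p = 0.54). The middle one, for Fech in G-NHX9-midi-21FGAA, passed with the replicate block (adjusted p = 0.041), without Empty replicate 1 (0.047) or 5 (0.035), and without G-NHX9-midi-21FGAA replicate 1 (0.026). Against G-NHX9, Fech was higher in G-NHX9-DDNA (0.54, adjusted p = 0.001) and in G-NHX9-21FGAA (0.41, adjusted p = 0.015), the latter not without G-NHX9-21FGAA replicate 4 (0.29, adjusted p = 0.094) or 5 (0.35, adjusted p = 0.05), in a fit to both groups alone (adjusted p = 0.12) or with replicates 1 to 3 only (0.18, adjusted p = 0.29). G-NHX9-midi-21FGAA exceeded G-NHX9-midi by 1.04 ± 0.12 (adjusted p = 1.7e-08).

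Slc25a38, the mitochondrial glycine carrier, had means from 15.9 CPM in G-NHX9-8FA to 20.1 CPM in G-NHX9-midi-21FGAA. It was called in no construct against Empty, where the largest value was 0.23 ± 0.09 in G-NHX9-midi-21FGAA (adjusted p = 0.073, and 0.038 with the replicate block). Without Empty replicate 1 or G-NHX9-midi-21FGAA replicate 1 this value passed (adjusted p = 0.042 and 0.03). Slc25a38 was lower than in G-NHX9 in G-NHX9-8FA (-0.27 ± 0.09, adjusted p = 0.045) and G-NHX9-midi (-0.26 ± 0.09, adjusted p = 0.039). The first was lost without any 1 library other than G-NHX9 replicate 1 or G-NHX9-8FA replicate 2 (highest adjusted p = 0.096). The second was lost without any 1 library other than G-NHX9 replicate 1 or G-NHX9-midi replicates 4 and 5 (highest adjusted p = 0.13). Without a filter on low counts both missed the threshold (0.13 and 0.15), as they did in fits to both groups alone (0.088 and 0.092) and with replicates 1 to 3 only (0.26 and 0.059). It was higher in G-NHX9-midi-21FGAA than in G-NHX9-midi (0.33 ± 0.09, adjusted p = 0.0033).

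Of 17 partners of the pathway (among them mitochondrial carriers, iron-sulfur cluster genes and regulators of the synthase), 5 were higher and 3 lower in G-NHX9-21FGAA, 5 and 2 in G-NHX9-midi-21FGAA and 4 and 2 in G-NHX9-DDNA against Empty. In G-NHX9 3 were higher and 1 lower, in G-NHX9-8FA 1 and 3, and in G-NHX9-midi 2 and 5. Over all genes tested, 14.7% were higher and 12.5% lower in G-NHX9-21FGAA, 9.59% and 7.32% in G-NHX9-midi-21FGAA and 9.85% and 7.35% in G-NHX9-DDNA. These shares were 16.9% and 15.2% in G-NHX9, 13.4% and 13.2% in G-NHX9-8FA, and 20.5% and 20.0% in G-NHX9-midi. Abcb10, a mitochondrial transporter that binds the iron importer of red cell precursors, rose by 1.17, 0.94 and 0.81 on the log2 scale in G-NHX9-21FGAA, G-NHX9-midi-21FGAA and G-NHX9-DDNA (adjusted p = 2.0e-06, 2.9e-04 and 7.6e-04). Abcb10 was also higher in G-NHX9 (0.41, adjusted p = 0.034), with an adjusted p of up to 0.14 when 1 library was left out. Slc25a37 and Slc25a28 encode that importer, mitoferrin, and its form in other tissues. Slc25a37 was higher in G-NHX9-midi (0.67, adjusted p = 0.037), a call lost without Empty replicate 1, 2 or 3 or G-NHX9-midi replicate 2 or 5 (highest adjusted p = 0.11) and with no filter on low counts (adjusted p = 0.051). Slc25a28 was higher in G-NHX9-midi (0.56, adjusted p = 6.5e-06), in G-NHX9-8FA (0.39, adjusted p = 0.0013) and in G-NHX9 (0.26, adjusted p = 0.025), the last with an adjusted p of up to 0.1 when 1 library was left out. Iscu, the scaffold on which iron-sulfur clusters are built, fell by 0.45 on the log2 scale in G-NHX9-DDNA (adjusted p = 0.0034), and Slc25a39, a mitochondrial glutathione carrier, fell by 0.44 in G-NHX9-21FGAA (adjusted p = 2.1e-04). Levels were alike in G-NHX9-DDNA, G-NHX9-21FGAA and G-NHX9-midi-21FGAA. In that order Iscu had means of 37.6, 37.6 and 38.9 CPM against 51.4 in Empty. Slc25a39 had 85.2, 78.0 and 82.9 CPM against 106. None of these ranges overlapped that of Empty. The median over the 17 genes was between -0.07 and 0.16 in the 6 constructs.

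Of 12 genes of heme degradation, transport and sensing, 6 were lower and 0 higher than in Empty in G-NHX9, 4 and 0 in G-NHX9-8FA and 6 and 0 in G-NHX9-midi. Lower and higher genes numbered 7 and 1 in G-NHX9-21FGAA, 1 and 1 in G-NHX9-midi-21FGAA and 4 and 1 in G-NHX9-DDNA. Lower and higher shares of all genes were 15.2% and 16.9% in G-NHX9, 13.2% and 13.4% in G-NHX9-8FA and 20.0% and 20.5% in G-NHX9-midi. They were 12.5% and 14.7% in G-NHX9-21FGAA, 7.32% and 9.59% in G-NHX9-midi-21FGAA and 7.35% and 9.85% in G-NHX9-DDNA. Flvcr1, a heme exporter, and its relative Flvcr2 fell in G-NHX9-midi, G-NHX9 and G-NHX9-8FA. In G-NHX9-midi their log2 fold changes were -0.95 (adjusted p = 2.1e-06) and -2.92 (adjusted p = 2.1e-10). In G-NHX9 they were -0.91 and -1.10 (adjusted p = 7.7e-06 and 7.1e-04). In G-NHX9-8FA they were -0.64 and -1.26 (adjusted p = 8.5e-04 and 2.1e-04). Flvcr1 was also lower in G-NHX9-21FGAA (-0.50, adjusted p = 0.0084, and up to 0.067 in the alternatives), where Flvcr2 was not called (-0.07, adjusted p = 0.87). Hmox1, the heme oxygenase induced by heme and stress, fell by 0.72 in G-NHX9-midi (adjusted p = 0.0032) and stood at 0.01 in G-NHX9-8FA (adjusted p = 0.98). Abcg2, an exporter of porphyrins, went in opposite directions. It was at -1.45 in G-NHX9-midi (adjusted p = 2.5e-06) and -0.82 in G-NHX9-8FA (adjusted p = 0.0041). In G-NHX9-21FGAA, G-NHX9-midi-21FGAA and G-NHX9-DDNA it was at 1.24, 1.15 and 0.95 (adjusted p = 8.2e-05, 7.2e-04 and 0.0029). Blvrb, which reduces biliverdin, fell by 0.83 in G-NHX9 (adjusted p = 5.5e-04), where its mean was 79.2 CPM against 141 CPM in Empty. Other constructs had lower means than Empty too, with 80.1 CPM in G-NHX9-midi, 92.9 in G-NHX9-21FGAA and 93.2 in G-NHX9-DDNA. Blvrb means were 105 CPM in G-NHX9-midi-21FGAA and 121 CPM in G-NHX9-8FA. Nr1d2, a heme-binding nuclear receptor, fell by 0.65 in G-NHX9-DDNA (adjusted p = 0.025). The call of Nr1d2 was lost without Empty replicate 2 or 3 or G-NHX9-DDNA replicate 2 (highest adjusted p = 0.078).

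A list of 8 genes known for control of Alas2 by iron or by the erythroid program was read beside it. Of these 8, 4 were lower and 1 higher than in Empty in G-NHX9-8FA, 5 and 1 in G-NHX9-midi, and 1 and 1 in G-NHX9. In G-NHX9-21FGAA, G-NHX9-midi-21FGAA and G-NHX9-DDNA, 5, 3 and 2 were higher with 0 lower. Beside these counts, 13.2% of all genes were lower and 13.4% higher in G-NHX9-8FA, 20.0% and 20.5% in G-NHX9-midi, and 15.2% and 16.9% in G-NHX9. The shares were 12.5% and 14.7% in G-NHX9-21FGAA, 7.32% and 9.59% in G-NHX9-midi-21FGAA and 7.35% and 9.85% in G-NHX9-DDNA. Gata1, a GATA factor of red cell precursors among other cells, had log2 fold changes of -1.73 in G-NHX9-8FA (adjusted p = 6.0e-07) and -2.25 in G-NHX9-midi (adjusted p = 2.4e-09). It was at 1.24 in G-NHX9-21FGAA (adjusted p = 1.2e-04), 1.07 in G-NHX9-midi-21FGAA (adjusted p = 0.0015) and 0.80 in G-NHX9-DDNA (adjusted p = 0.011). Klf1, which reads CACCC motifs, was at -3.45 (adjusted p = 1.8e-07), -3.86 (adjusted p = 1.4e-08), 1.33 (adjusted p = 0.0056), 1.42 (adjusted p = 0.0064) and 1.00 (adjusted p = 0.049) in the same order. Klf1 in G-NHX9-DDNA was not called without any 1 of Empty replicates 3, 4 and 5 and G-NHX9-DDNA replicates 1, 2, 3 and 5 (highest adjusted p = 0.13). With replicates 1 to 3 only, the rise of Klf1 was not called in any of the 3 groups (adjusted p = 0.35, 0.19 and 0.14), nor that of Gata1 in G-NHX9-midi-21FGAA (0.11) and G-NHX9-DDNA (0.068). In G-NHX9 neither was called, with -0.49 for Gata1 (adjusted p = 0.085) and 0.02 for Klf1 (adjusted p = 0.98). Zfpm1, a partner of GATA1, fell by 0.93 in G-NHX9-8FA and 0.97 in G-NHX9-midi (adjusted p = 0.0037 and 0.0015), and Tal1, a factor of the same complex, rose by 0.67 in G-NHX9-21FGAA (adjusted p = 0.0016, and 0.058 with replicates 1 to 3 only). Aco1 and Ireb2 encode the iron regulatory proteins, which bind the iron-responsive element of the Alas2 message. Aco1 was lower in G-NHX9, G-NHX9-8FA and G-NHX9-midi (-0.61, -0.58 and -0.65, adjusted p = 2.0e-06, 6.0e-06 and 3.9e-07), and Ireb2 in G-NHX9-midi (-0.62, adjusted p = 0.046). The call of Ireb2 was lost without any 1 library other than Empty replicate 1 or 3 or G-NHX9-midi replicate 5 (highest adjusted p = 0.13). Nfe2, named after its values were seen, was the 1 gene of the list that was higher in G-NHX9, G-NHX9-8FA and G-NHX9-midi (0.47, 0.44 and 0.44, adjusted p = 0.0011, 0.0028 and 0.0015), the second at an adjusted p of 0.18 with replicates 1 to 3 only.

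**Figure D5:**
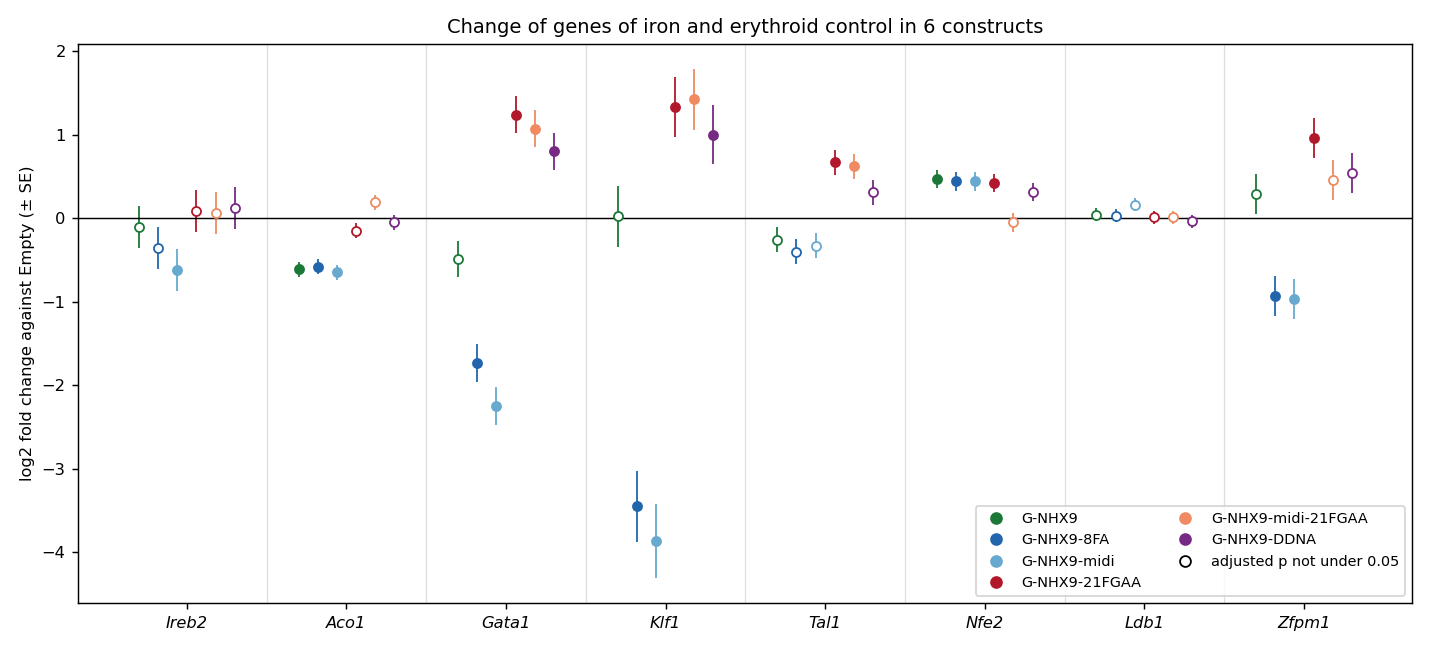
Log2 fold change of 8 genes of iron and erythroid control against Empty. The vertical axis is the fitted log2 fold change, bars are its SE, colours are the 6 constructs, and open circles mark values with an adjusted p that is not under 0.05. Gata1 and Klf1 lie below 0 in G-NHX9-8FA and G-NHX9-midi and above 0 in G-NHX9-21FGAA, G-NHX9-midi-21FGAA and G-NHX9-DDNA, with -2.25 and -3.86 in G-NHX9-midi.

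Markers of other lineages also moved between these groups. Of 7 mast cell genes, 5 were lower than in Empty in each of G-NHX9, G-NHX9-8FA and G-NHX9-midi, with a range of the summed level from 585 to 709, 489 to 795 and 446 to 760.1 CPM against 1109 to 3233 CPM, and 3 and 4 were higher in G-NHX9-21FGAA and G-NHX9-midi-21FGAA. All 5 megakaryocyte genes and all 3 eosinophil genes were lower in both G-NHX9-8FA and G-NHX9-midi. In G-NHX9, 2 megakaryocyte and 2 eosinophil genes were lower, while Alas2 and the 11 erythroid genes were not called. Of the 6 macrophage genes, 2 were higher and 2 lower in G-NHX9, 1 was lower in G-NHX9-8FA, 4 in G-NHX9-midi, 3 in G-NHX9-21FGAA and 2 in G-NHX9-DDNA. Of the 5 stem and progenitor genes, 4 were higher in G-NHX9 and 1, Kit, was lower (log2 fold change -0.88, adjusted p = 0.0076). In each other construct 2 or 3 of the 5 were higher, and 1 was lower in G-NHX9-midi and in G-NHX9-DDNA. Cd34, a surface marker of these cells, rose by 2.57 on the log2 scale in G-NHX9 (adjusted p = 3.5e-12). Mean Cd34 was 220.0 CPM there, 206 CPM in G-NHX9-21FGAA and 135 CPM in G-NHX9-midi-21FGAA. It was 84.9, 68.3 and 55.8 CPM in G-NHX9-8FA, G-NHX9-midi and G-NHX9-DDNA, against 36.9 CPM in Empty. For all genes, the higher and lower shares were 16.9% and 15.2% in G-NHX9, 13.4% and 13.2% in G-NHX9-8FA and 20.5% and 20.0% in G-NHX9-midi. They were 14.7% and 12.5% in G-NHX9-21FGAA, 9.59% and 7.32% in G-NHX9-midi-21FGAA and 9.85% and 7.35% in G-NHX9-DDNA. The part of any of these lineages in the levels of the heme genes was not tested.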

How the data were processed

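RNA of 35 libraries, 5 in each of 7 groups taken from the sample titles, was sequenced by the study as paired ends from a stranded total RNA kit. The authors deposited raw counts per gene, without normalization, in 1 table of 49671 Ensembl genes. The submitters' processing notes name mm10, STAR 2.7.0d, HTSeq 0.11.2 and DESeq2, and whether counting used the strand is not given in the sources used here. Gene positions came from GENCODE M21, which holds 99.3% of the IDs, and promoters from RefSeq. No pair of same-group libraries agreed within sampling noise (lowest chi-square per degree of freedom 23.2 over 70 pairs).

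Counts were fitted with edgeR 4.0.16 (quasi-likelihood, filterByExpr, TMM, 1 mean per group over all 35 libraries) in R 4.3.3 with limma 3.58.1, and p-values were adjusted by Benjamini-Hochberg over the 17166 genes tested. The procedure was tested on simulated data. The ratio of Alas2 to Alas1 counts was taken after adding 0.5 to each and compared by exact permutation (252 arrangements) in Python 3.11.15 with numpy 2.4.6, pandas 2.3.3 and scipy 1.17.1, and plots were drawn with matplotlib 3.10.9. The alternatives tried left out the TMM factors, used RLE factors in their place, dropped the filter, kept genes whose mean reached 1 CPM, added a block for the replicate number or a covariate for sex-linked genes, or used a fit to the groups compared alone, DESeq2 1.42.0, each library left out in turn, 2 added counts in the ratio and, chosen after the data were seen, replicates 1 to 3 only and the erythroid sum without Hbb-bt.

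Libraries with the same replicate number deviated together in 5 of the 11 comparisons, in which every pair's correlation was over 0.1 (G-NHX9, G-NHX9-midi-21FGAA and G-NHX9-DDNA against Empty, and G-NHX9-21FGAA and G-NHX9-DDNA against G-NHX9). The mean correlation was 0.232 for the same number and -0.057 for other numbers. The pairing comes from the data, since the labels do not say what a number marks.

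The members and gene lists were chosen with earlier results of these data known. Named genes were the 9 members, up to 6 genes of each list (the largest log2 fold change against Empty among those called, if their mean reached 5 CPM) and the 5 genes most correlated with Alas2 and with Alas1. A gene that this rule names is not reported here.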

Additional observations from a re-analysis of the deposited data

Results flagged for a closer look

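In the 70 sets of 5 libraries that were checked for a library far from the rest, 2 were found, where chance gives about 1 in 20. Ppox in G-NHX9-DDNA had replicate 4 at 22.0 CPM, below the other 4 libraries at 25.8 to 27.3 CPM. Slc25a38 in G-NHX9-8FA had replicate 2 at 17.8 CPM, above the other 4 at 15.0 to 15.6 CPM. Without that library, Slc25a38 in G-NHX9-8FA remained lower than in G-NHX9.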

How the results depend on the processing

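The fall of Alas2 in G-NHX9-8FA and G-NHX9-midi and the 5 calls of Cpox against Empty held in every fit run. No call changed its direction, and each sign that turned belonged to a value that was not called. With replicates 1 to 3 only, these included Alas2 in G-NHX9-21FGAA against Empty, from 1.20 to -0.03. Depth limits Alas2 in the 3 libraries with 1 or 2 counts of it, whose levels cannot be ranked.

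The number of the 9 members called moved over 1.5 times in these fits. Without TMM it was 2 in G-NHX9, 6 in G-NHX9-21FGAA, 7 in G-NHX9-midi-21FGAA and 4 in G-NHX9-DDNA against Empty, and the share of calls over all genes that were higher went from 52.5% to 75.4%, 54.0% to 82.1%, 56.7% to 83.1% and 57.3% to 82.5%, in G-NHX9-midi from 50.6% to 64.6%, and in G-NHX9-8FA against G-NHX9 from 44.4% to 20.0%. In G-NHX9-midi-21FGAA against Empty it was 4 with a mean of at least 1 CPM, 4 with the replicate block and 5 with the sex-linked score. Of all genes, 12.9%, 13.2% and 12.4% were then higher and 10.0%, 12.1% and 10.8% lower, against 9.59% and 7.32% in the main fit. In G-NHX9-DDNA 2 members were called with the sex-linked score and 2 in the fit to the groups compared. There 12.1% and 9.71% of all genes were higher and 9.84% and 8.11% lower, against 9.85% and 7.35% in the main fit. Without a filter 1 member was called in G-NHX9-midi against G-NHX9, where 2.95% of all genes were higher and 4.35% lower (8.50% and 11.2% in the main fit). With replicates 1 to 3 only, 1 member was called in G-NHX9-21FGAA against Empty. There 8.07% of all genes were higher and 7.10% lower (14.7% and 12.5% in the main fit). In each of G-NHX9-8FA, G-NHX9-midi and G-NHX9-21FGAA against G-NHX9, 1 member was called. Of all genes, 3.85%, 6.07% and 8.44% were higher and 7.11%, 9.50% and 7.45% lower. The main fit had 6.43%, 8.50% and 8.91% higher and 8.04%, 11.2% and 8.34% lower. The cause of these moves in the count was not tested.

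Leaving out 1 library gave 2 to 4 members called in G-NHX9-21FGAA (4 without its replicate 1), 2 to 6 in G-NHX9-midi-21FGAA (5 without Empty replicate 1, 6 without its own replicate 1) and 1 to 3 in G-NHX9-DDNA (3 without Empty replicate 1, 2 without its own replicate 4 or 5) against Empty. Against G-NHX9 it gave 1 to 4 in G-NHX9-8FA (1 without G-NHX9 replicate 5, 2 without its own replicate 4), 1 to 3 in G-NHX9-midi (1 without G-NHX9 replicate 2, 3, 4 or 5 or its own replicate 2 or 3) and 2 to 4 in G-NHX9-21FGAA (2 without its replicate 4). The shares of all genes called in these fits were not set beside these counts. Whether the members moved more than all genes did was not tested.

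The difference in the log2 ratio of Alas2 to Alas1 ranged, over libraries left out, from -1.06 to -0.52 in G-NHX9, 0.57 (without its replicate 4) to 1.39 in G-NHX9-21FGAA, 1.31 to 1.88 in G-NHX9-midi-21FGAA and 0.86 to 1.41 in G-NHX9-DDNA against Empty, and from 1.34 to 2.16 in G-NHX9-21FGAA against G-NHX9. Paired by replicate number, the exact sign-flip permutation test cannot pass, and 7 differences called without pairing did not (-5.78, -6.30 and 1.56 against Empty in G-NHX9-8FA, G-NHX9-midi and G-NHX9-midi-21FGAA, -5.00, -5.52 and 1.92 against G-NHX9 in G-NHX9-8FA, G-NHX9-midi and G-NHX9-DDNA, and 7.86 for G-NHX9-midi-21FGAA against G-NHX9-midi). In edgeR the replicate block changed 2 further calls, in comparisons whose libraries share only a number: Cpox in G-NHX9-midi against G-NHX9 (-0.44, adjusted p = 0.048) and Uros in G-NHX9-midi-21FGAA against G-NHX9-midi (0.44, adjusted p = 0.05).

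Signs that turned without TMM were those of Uros in G-NHX9-8FA (0.00), G-NHX9-midi (0.04) and G-NHX9-DDNA (0.09), Cpox (0.01) and Alad (0.05) in G-NHX9, Slc25a38 (0.02) and Urod (0.10) in G-NHX9-midi, Alas1 in G-NHX9-midi-21FGAA (0.03) and G-NHX9-21FGAA (0.06) and Fech in G-NHX9-21FGAA (0.18) against Empty, and Ppox in G-NHX9-8FA (-0.05) and G-NHX9-DDNA (-0.04) against G-NHX9. With replicates 1 to 3 only, against Empty, they were Urod in G-NHX9-21FGAA (-0.03) and G-NHX9-8FA (-0.08), Alas2 (-0.03) and Uros (-0.31) in G-NHX9-21FGAA, Uros in G-NHX9-DDNA (0.02) and Alas1 in G-NHX9-midi-21FGAA (0.08) and G-NHX9-21FGAA (0.09). Against G-NHX9 they were Ppox (-0.01), Uros (-0.05) and Urod (-0.09) in G-NHX9-21FGAA, Slc25a38 (0.01) and Urod (0.07) in G-NHX9-DDNA and Ppox in G-NHX9-midi (0.02). Urod in G-NHX9-DDNA against G-NHX9 was 0.00 with DESeq2 and with no filter, Fech in G-NHX9-21FGAA against Empty 0.00 in the fit to the groups compared and with a mean of at least 1 CPM and 0.02 with no filter, and Ppox in G-NHX9-midi-21FGAA against G-NHX9-midi 0.00 with the sex-linked score.

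Over libraries left out, signs turned against Empty for Alas1 in G-NHX9 (0.00 to 0.16), Uros in G-NHX9-8FA (-0.20 to 0.08), G-NHX9-midi (-0.17 to 0.04), G-NHX9-21FGAA (-0.04 to 0.27) and G-NHX9-DDNA (-0.16 to 0.09), Urod in G-NHX9-8FA (0.00 to 0.07) and G-NHX9-midi (-0.07 to 0.00), Fech in G-NHX9-21FGAA (-0.13 to 0.07), Ppox in G-NHX9-midi-21FGAA (0.00 to 0.11) and Slc25a38 in G-NHX9-DDNA (-0.03 to 0.08). Against G-NHX9 they turned for Ppox in G-NHX9-midi (-0.08 to 0.03), G-NHX9-21FGAA (-0.05 to 0.16) and G-NHX9-DDNA (-0.05 to 0.09), and Urod in G-NHX9-21FGAA (-0.02 to 0.16) and G-NHX9-DDNA (-0.06 to 0.03), and for Ppox between G-NHX9-midi-21FGAA and G-NHX9-midi (-0.04 to 0.06).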
